A study of Homo sapiens with 12 samples.

Results

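The genes described here are 10 feedback genes of the extracellular signal-regulated kinase (ERK) pathway, namely the phosphatase genes DUSP1, DUSP4, DUSP5, DUSP6 and DUSP10, the Sprouty genes SPRY1, SPRY2 and SPRY4, and the Sprouty-related genes SPRED1 and SPRED2. They were chosen by name as known feedback genes, with earlier results of these data known, and their estimated counts were summed per gene in all 12 libraries. They are 10 of 36315 genes to which the transcripts of the libraries were assigned, and all 10 had enough counts to be tested. The cells were HMC3, an immortalized human line used as a model of microglia, in 4 groups of 3 libraries. All cells were transfected with an siRNA for 48 h and then given a pre-clustered Fc protein at 2 µg/mL for 24 h. Ctrl cells received negative control siRNA and Ctrl-Fc. EphB2 cells received negative control siRNA and EphB2-Fc, the receptor ectodomain that binds ephrin-B proteins and drives reverse signaling through them. The ephrin-B1 siRNA group received ephrin-B1 siRNA and Ctrl-Fc, and the EphB2 + ephrin-B1 siRNA group received ephrin-B1 siRNA and EphB2-Fc. The methods name a single ephrin-B1 siRNA product, so effects through ephrin-B1 and effects of that siRNA on other transcripts cannot be told apart.

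ERK is the last kinase of the RAS, RAF and MEK cascade, which carries growth factor and cytokine signals to the nucleus. Active ERK induces its own brakes. Dual-specificity phosphatases (DUSP) remove the activating phosphates from MAP kinases, and Sprouty and Spred proteins act upstream, at the level of the receptor, RAS and RAF. The mRNA of several of these genes is therefore widely used as a readout of ERK output, although the mRNA is also set by other pathways.

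Libraries held 13230689 to 25785591 estimated counts. Libraries of the same replicate number belong to the same experiment per the submitters' names. Replicate 3 lay between replicates 1 and 2 for 90.5% to 93.8% of the genes that differed at least 2-fold between these replicates, so its independence from them was not shown, and calls made with the replicate number as a block are given with and without it. EFNB1, the gene of ephrin-B1, was measured at 20.4, 17.4 and 19.3 CPM (counts per M counts, after TMM normalization) in the Ctrl libraries and at 7.10, 6.60 and 8.70 CPM in the ephrin-B1 siRNA libraries. With the siRNA EFNB1 fell by 1.35 as a log2 difference (SE 0.13, adjusted p = 0.00124, edgeR quasi-likelihood test with Benjamini-Hochberg adjustment). Under EphB2-Fc it fell by 1.47 (SE 0.13, adjusted p = 0.00189). A log2 difference is the log2 fold change fitted by edgeR without a block unless stated. Without the block, leaving out replicate 3 left 0 genes called in any comparison, so all calls without the block were lost, EFNB1 included. With the block and without replicate 3 EFNB1 was still called (edgeR adjusted p = 0.00151, and 0.00523 under EphB2-Fc). Of 12 markers of microglia and macrophages, 4 had a mean of at least 1 TPM (transcripts per M transcripts), with CX3CR1 the lowest at 0.0061, whereas 11 of 12 mesenchymal and pericyte markers did, with FN1 at 1705 and COL3A1 at 0.0388. Of 9 neuron, astrocyte and oligodendrocyte markers 5 did, with MBP at 11.9 and AQP4 at 0.0368. The summed TPM of the mesenchymal list was 4409 to 5819 in Ctrl, 4004 to 4883 in EphB2, 4420 to 4751 in ephrin-B1 siRNA and 3125 to 4013 in EphB2 + ephrin-B1 siRNA libraries, and that of the neural list was 26.5 to 48.9, 17.4 to 48.6, 19.0 to 50.1 and 16.2 to 32.6. The part of these lists in the results below was not tested.

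All 10 feedback genes were expressed, with between 70 and 2103 counts in a library. In bulk RNA, fewer cells that express a gene and less of its RNA per cell cannot be told apart. On the length-corrected TPM scale the order of the mean levels over 12 libraries was DUSP1 at 31.1 ± 3.30 (SD, n = 12), DUSP5 at 28.9 ± 3.15, SPRED2 at 26.2 ± 3.17, SPRED1 at 17.5 ± 2.21, SPRY4 at 13.4 ± 2.14, SPRY1 at 10.6 ± 3.10, SPRY2 at 10.1 ± 1.51, DUSP10 at 8.63 ± 3.23, DUSP6 at 7.16 ± 3.25 and DUSP4 at 5.86 ± 2.24. The highest, DUSP1, stood at percentile 79.1 of the genes tested and the lowest, DUSP4, at percentile 51.6. The upper part of this order was the same in most libraries. DUSP1 exceeded DUSP5 in 10 of 12 libraries, SPRED2 exceeded SPRED1 in 12, and SPRED1 exceeded SPRY4 in 12. The lower part was not resolved. SPRY1 exceeded SPRY2 in 6 of 12 libraries, SPRY2 exceeded DUSP10 in 7, DUSP10 exceeded DUSP6 in 6 and DUSP6 exceeded DUSP4 in 6.

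**Figure D1:**
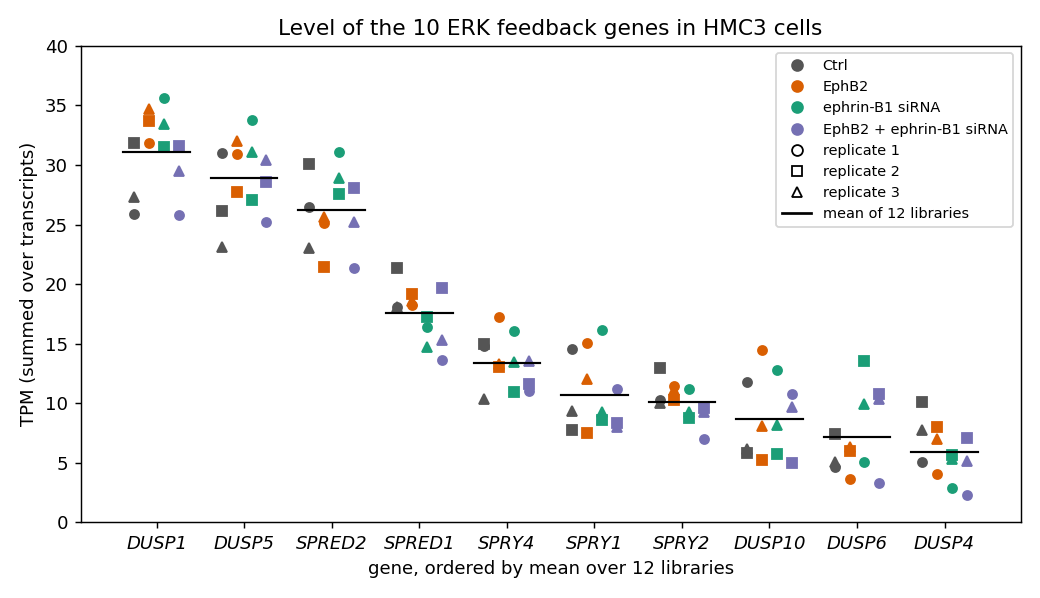
TPM (vertical axis) of the 10 genes in each of the 12 libraries, with colours for the groups, symbols for the replicate numbers and a black line for the mean of 12 libraries. DUSP1, DUSP5 and SPRED2 stand highest with means of 26.2 to 31.1, and the 4 lowest genes, SPRY2, DUSP10, DUSP6 and DUSP4, have means of 5.86 to 10.1.

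The region just before the start site is shown for DUSP1, which rose with EphB2-Fc once the replicate number was a block, and for DUSP6, SPRY2 and SPRED1, which changed with ephrin-B1 siRNA in the same fit. The RefSeq regions used here (GRCh38.p14) covered 8 of the 10 genes. They left out DUSP5 and DUSP4, which were also called with the block, with EphB2-Fc and with ephrin-B1 siRNA, so these were not searched. Each sequence below is the 250 bases before the start, read on the strand of the gene, for DUSP1 at chr5:172771196-172771445 (minus strand), DUSP6 at chr12:89352502-89352751 (minus), SPRY2 at chr13:80341127-80341376 (minus) and SPRED1 at chr15:38252586-38252835 (plus). Capitals mark matches to the searched letters, which were the cAMP response element TGACGTCA and its part TGACGTC, the AP-1 site TGACTCA, the ETS core CCGGAAG and the E-box CACGTG, on both strands.
DUSP1: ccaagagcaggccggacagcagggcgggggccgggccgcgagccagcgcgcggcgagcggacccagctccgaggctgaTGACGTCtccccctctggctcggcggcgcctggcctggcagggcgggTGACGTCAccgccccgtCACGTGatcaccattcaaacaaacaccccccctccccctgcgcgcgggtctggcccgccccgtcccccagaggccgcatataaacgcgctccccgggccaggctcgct
DUSP6: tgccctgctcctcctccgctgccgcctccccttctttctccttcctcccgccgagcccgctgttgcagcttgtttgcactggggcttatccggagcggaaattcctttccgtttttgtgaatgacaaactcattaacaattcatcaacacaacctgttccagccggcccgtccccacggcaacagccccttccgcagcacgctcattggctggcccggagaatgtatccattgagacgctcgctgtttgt
SPRY2: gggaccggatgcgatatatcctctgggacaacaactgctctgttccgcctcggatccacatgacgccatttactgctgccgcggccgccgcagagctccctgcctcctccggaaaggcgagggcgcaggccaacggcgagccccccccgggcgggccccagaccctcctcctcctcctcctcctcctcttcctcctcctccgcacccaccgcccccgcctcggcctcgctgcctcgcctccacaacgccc
SPRED1: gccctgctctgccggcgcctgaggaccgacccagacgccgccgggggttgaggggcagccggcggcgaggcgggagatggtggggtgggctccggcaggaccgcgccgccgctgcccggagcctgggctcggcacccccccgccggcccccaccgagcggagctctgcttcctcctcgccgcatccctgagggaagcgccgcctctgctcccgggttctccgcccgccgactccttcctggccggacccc

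The DUSP1 region held the full cAMP response element 125 bases before the start, a further match to its part 172 bases before it, and an E-box 108 bases before it. The full element contains the 7-letter part on both strands, so these matches overlap. Of 35116 promoters of the same length, 1.646% held TGACGTCA, 3.118% held TGACGTC, 4.203% held TGACTCA, 8.517% held CCGGAAG and 6.345% held CACGTG. The DUSP6, SPRY2 and SPRED1 regions held none of the letters searched, which says only that these letters are not in these windows. Shorter or variant forms of these sites, such as other ETS sites, were not searched. Among the other members a second start of SPRY1 had CCGGAAG 67 bases before it.

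The comparison of EphB2 with Ctrl asks how the genes responded to EphB2-Fc in cells with negative control siRNA. The phosphatase genes DUSP1 and DUSP5 were both higher with EphB2-Fc by about 1.2-fold. They were the members called with the replicate number as a block but not without it. DUSP4, which also encodes an inducible nuclear phosphatase, was lower in each of 3 pairs and was not called. Without the block none of the 10 members passed the adjusted threshold of 0.05 in edgeR, where 0.037% of all 21601 genes did. In that fit 2 members had an unadjusted p under 0.05, against 7.56% of all genes, and DESeq2 called none. With the block edgeR called 2 of 10 members, both higher, against 2.13% of all genes called higher and 5.34% called in either direction.

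DUSP1 (ENSG00000120129, chromosome 5, 172768096 to 172771195, minus strand, GRCh38) encodes a nuclear phosphatase of p38, JNK and ERK and is an immediate early gene. It was at 36.2, 51.3 and 48.3 CPM in Ctrl replicates 1, 2 and 3 and at 46.1, 65.9 and 57.3 CPM in the EphB2 libraries. The EphB2 library was the higher in each of the 3 pairs, although EphB2 replicate 1 lay below Ctrl replicates 2 and 3, so the groups overlapped. Ctrl had a mean of 45.3 ± 7.95 CPM and EphB2 one of 56.4 ± 9.94 CPM (SD, n = 3). The difference was 0.32 on the log2 scale (SE 0.16, edgeR adjusted p = 0.715). With the block the adjusted p of edgeR was 0.00853 and that of DESeq2 was 0.00405, and without replicate 3 the blocked edgeR value was 0.0937. With the block DUSP1 thus rose, and this call was lost without replicate 3, while its blocked log2 difference was 0.31 with replicate 3 and 0.34 without it.

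DUSP5 (ENSG00000138166, chromosome 10, 110497907 to 110511533, plus strand) encodes a nuclear phosphatase that acts on ERK. It was at 52.9, 48.4 and 49.0 CPM in the Ctrl libraries and at 53.5, 65.5 and 61.3 CPM in the EphB2 libraries. The groups did not overlap, but the pair of replicate 1 differed by only 0.02 on the log2 scale against 0.44 and 0.32 in the pairs of replicates 2 and 3. The log2 difference was 0.26 (SE 0.09, edgeR adjusted p = 0.533), with an adjusted p of 0.0410 with the block and 0.388 with the block and without replicate 3. SPRY4 (ENSG00000187678, chromosome 5, 142310427 to 142326455, minus strand), a Sprouty gene that restrains RAS and RAF, was the other member whose groups did not overlap. It was at 28.1, 29.8 and 27.2 CPM in Ctrl and at 30.9, 32.0 and 32.7 CPM in EphB2. This was a log2 difference of 0.17 (SE 0.07) that did not pass the edgeR test without the block (adjusted p = 0.611) or with it (0.144). Thus 2 of 10 members had groups that did not overlap, both with EphB2 higher, against 6.62% of all genes in that direction and 12.5% in either.

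The remaining members showed no call with EphB2-Fc in either fit. DUSP10 (ENSG00000143507, chromosome 1, 221701424 to 221742089, minus strand), whose phosphatase acts on p38 and JNK rather than on ERK, was at 17.8, 10.4 and 12.8 CPM in Ctrl and at 22.2, 10.6 and 16.3 CPM in EphB2, higher in each of 3 pairs with a log2 difference of 0.27 (SE 0.32, edgeR adjusted p = 0.936, with the block 0.131). DUSP4 was lower in each of 3 pairs, with a log2 difference of -0.17 (SE 0.49). The log2 differences of DUSP6, SPRY1, SPRY2, SPRED1 and SPRED2 lay between -0.02 and 0.07. Over the 10 members, 8 log2 differences were positive and 2 negative, with a median of 0.05 against 0.01 over all genes, of which 51.4% were positive. In 3 of 3 pairs, 4 members were higher and 1 was lower, against 18.5% and 19.4% of all genes.

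In cells that had received ephrin-B1 siRNA, DUSP1, DUSP5 and SPRY4 were again higher with EphB2-Fc in each of 3 pairs, with a smaller value for DUSP1. None of the 10 members was called in EphB2 + ephrin-B1 siRNA against ephrin-B1 siRNA by edgeR without the block (0.116% of all genes were called), with it (6.92%), or by DESeq2, and 1 had an unadjusted p under 0.05, against 8.45% of all genes. DUSP1 was at 41.6, 51.7 and 46.6 CPM with ephrin-B1 siRNA and at 44.4, 57.3 and 47.1 CPM with EphB2-Fc added, a log2 difference of 0.09 (SE 0.16, edgeR adjusted p = 0.972). DUSP5 was at 46.2, 54.5 and 50.9 CPM and at 51.6, 60.7 and 58.8 CPM, a log2 difference of 0.18 (SE 0.09, adjusted p = 0.682). SPRY4 was at 28.2, 27.1 and 27.4 CPM and at 29.9, 31.0 and 31.0 CPM, a log2 difference of 0.15 (SE 0.07, adjusted p = 0.571, with the block 0.173). SPRY4 was again the gene whose groups did not overlap, 1 of 10 members against 7.26% of all genes in that direction. The direction of these 3 genes turned on the TPM scale, where log2(TPM + 1) gave -0.21 for DUSP1, -0.12 for DUSP5 and -0.14 for SPRY4 and the median of all genes was shifted by -0.20. This comparison shares no library with EphB2 against Ctrl, but both come from the same experiments and the same fit. In 3 of 3 pairs, 6 members were higher and 0 lower, against 19.9% and 22% of all genes, and the median log2 difference of the 10 was 0.12 against 0.00 over all genes.

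**Figure D2:**
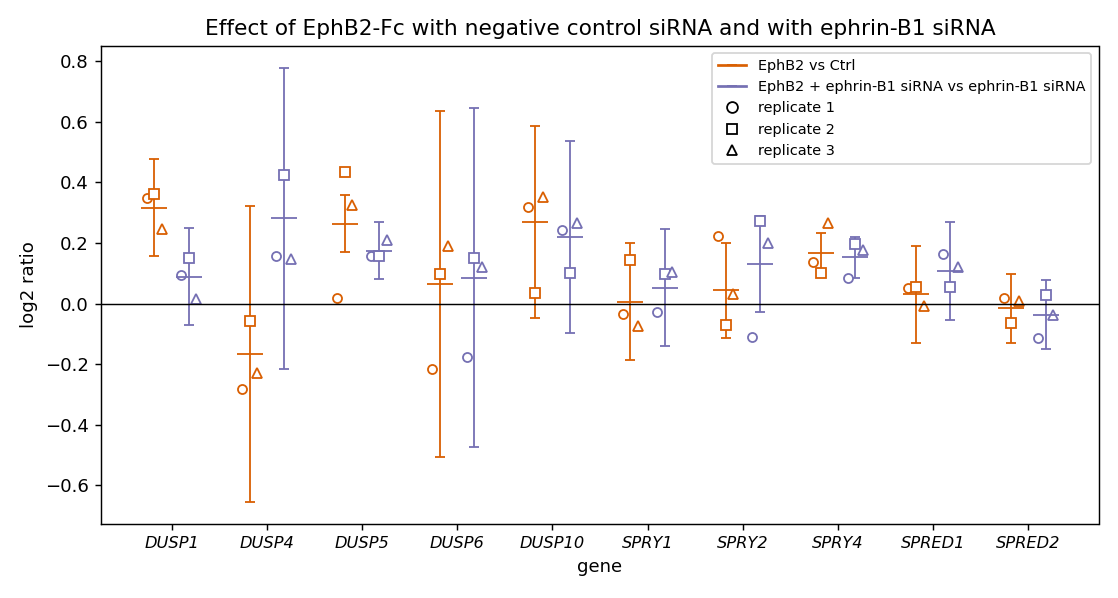
Log2 ratios (vertical axis) for EphB2-Fc against Ctrl-Fc, without (orange) and with (purple) ephrin-B1 siRNA, for the 10 genes. Open symbols are the ratios of CPM within each replicate number, horizontal ticks are the log2 differences of edgeR without the block and bars their SE. DUSP1, DUSP5, DUSP10 and SPRY4 lie above 0 in all pairs of both comparisons, and DUSP4 lies below 0 without and above 0 with ephrin-B1 siRNA.

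The comparison of ephrin-B1 siRNA with Ctrl asks how the genes responded to the knockdown itself. The members divided by direction, with DUSP4, SPRY2 and SPRED1 lower and DUSP6 higher, by factors of 0.542 to 1.49, in each of 3 pairs. Without the block none of the 10 passed in edgeR, where 1.81% of all genes did. There 2 had an unadjusted p under 0.05, against 12.1% of all genes, and DESeq2 called none. With the block edgeR called 4 of 10, namely 1 higher against 6.51% of all genes and 3 lower against 7.06% (13.6% in either direction). DESeq2 with the block called 4 as well, and of all 21601 genes it called 1149 higher and 1291 lower. No member had groups that did not overlap, against 18.1% of all genes.

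DUSP4 (ENSG00000120875, chromosome 8, 29333064 to 29350684, minus strand), a nuclear phosphatase induced by ERK, showed the largest difference of the 10. It was at 19.4, 43.8 and 36.3 CPM in the Ctrl libraries and at 9.41, 25.8 and 19.0 CPM in the ephrin-B1 siRNA libraries. Within each replicate number the siRNA library was the lower, by 1.04, 0.76 and 0.94 on the log2 scale, while Ctrl replicate 1 lay below siRNA replicate 2. The means were 33.2 ± 12.5 and 18.1 ± 8.25 CPM (SD, n = 3). This was a log2 difference of -0.88 (SE 0.49, edgeR adjusted p = 0.538). With the block DUSP4 fell by 0.90 on the log2 scale (SE 0.09, adjusted p = 2.4e-05), and it still passed without replicate 3 (0.0051).

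DUSP6 (ENSG00000139318, chromosome 12, 89347235 to 89352501, minus strand), whose product is a cytoplasmic phosphatase specific for ERK, moved the other way. It was at 5.24, 13.5 and 9.77 CPM in Ctrl and at 7.15, 22.3 and 13.3 CPM with ephrin-B1 siRNA. Its levels rest on few reads, with 70 counts in Ctrl replicate 1. The siRNA library was the higher in each pair, by 0.45, 0.73 and 0.45 on the log2 scale. The log2 difference was 0.57 (SE 0.57, edgeR adjusted p = 0.811). With the block it was 0.57 (SE 0.12, adjusted p = 0.00484), and without replicate 3 the adjusted p was 0.0491. DUSP6 and DUSP4, both genes of ERK-induced phosphatases, thus changed in opposite directions in the fit with the block.

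SPRY2 (ENSG00000136158, chromosome 13, 80335976 to 80341126, minus strand), a Sprouty gene induced by growth factors, was at 16.7, 24.5 and 21.0 CPM in Ctrl and at 15.3, 16.8 and 15.1 CPM with ephrin-B1 siRNA. Ctrl replicate 1 was the only Ctrl library within the range of the siRNA libraries. Their log2 difference was -0.40 (SE 0.16, edgeR adjusted p = 0.309). With the block SPRY2 fell (adjusted p = 0.00846), but not without replicate 3 (0.174).

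SPRED1 (ENSG00000166068, chromosome 15, 38252836 to 38357249, plus strand) encodes an adaptor that brings neurofibromin to RAS. It was at 83.5, 108.6 and 98.2 CPM in Ctrl and at 63.7, 90.3 and 66.5 CPM with ephrin-B1 siRNA. Replicates 1 and 3 of the siRNA group lay below all Ctrl libraries and replicate 2 did not. Its log2 difference was -0.40 (SE 0.16, edgeR adjusted p = 0.327), and with the block SPRED1 fell with an adjusted p of 0.000267, or 0.0184 without replicate 3. Its paralog SPRED2 (ENSG00000198369, chromosome 2, 65310851 to 65432637, minus strand) was at 67.1, 81.1 and 72.5 CPM and at 73.2, 88.8 and 80.4 CPM, higher in each pair with a log2 difference of 0.13 (SE 0.11, adjusted p = 0.753) that did not pass with the block either (0.0766). SPRY1 (ENSG00000164056, chromosome 4, 123396795 to 123403760, plus strand) lay between 9.55 and 15.0 CPM in Ctrl and between 9.41 and 12.9 CPM with ephrin-B1 siRNA, lower in each pair, and passed in neither fit (adjusted p = 0.836, with the block 0.260). The log2 differences of DUSP1, DUSP5, DUSP10 and SPRY4 lay between -0.04 and 0.04. In 3 of 3 pairs 2 members were higher and 4 lower, against 22% and 22.1% of all genes. Over the 10 members 5 values were positive and 5 negative, with a median of -0.02 against 0.00 over all genes.

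**Figure D3:**
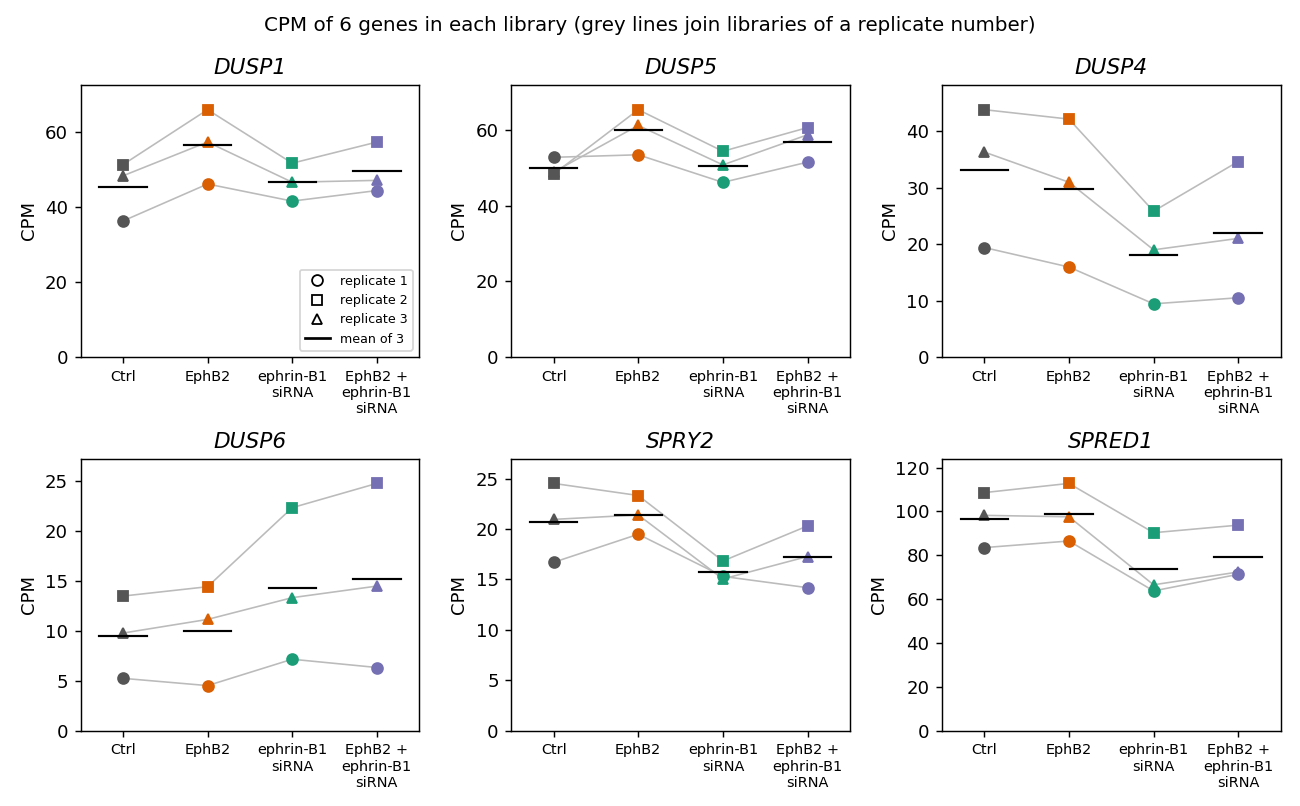
CPM (vertical axes, from 0) of the 6 members called with the block in any comparison, in the 4 groups (horizontal axes). Symbols are libraries, grey lines join libraries of a replicate number and black lines are means of 3, and for DUSP4 and DUSP6 replicate 1 lies lowest and replicate 2 highest in all 4 groups.

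The knockdown was also read under EphB2-Fc, by comparing EphB2 + ephrin-B1 siRNA with EphB2, in libraries that the previous comparison did not use. The same 4 genes were called with the block, each in the same direction. Both comparisons come from the same experiments and the same fit, so they are not independent. Without replicate 3 none of the 10 members was called here with the block, where 166 of 20658 genes were called higher and 166 lower. Without the block edgeR called none of the 10 members (0.616% of all genes), 0 had an unadjusted p under 0.05 (10.4% of all genes) and DESeq2 called none. With the block edgeR called 1 member higher and 3 lower, against 4.53% and 5.4% of all genes (9.93% in either direction). DESeq2 with the block called 3, and of all 21601 genes it called 840 higher and 979 lower.

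DUSP4 was at 15.9, 42.2 and 31.0 CPM in EphB2 and at 10.5, 34.6 and 21.0 CPM in EphB2 + ephrin-B1 siRNA libraries. It was the lower with siRNA in each pair, and the groups overlapped. The log2 difference was -0.44 (SE 0.49, edgeR adjusted p = 0.877), and with the block DUSP4 fell with an adjusted p of 0.00459, or 0.128 without replicate 3. DUSP6 was at 4.51, 14.4 and 11.1 CPM and at 6.33, 24.7 and 14.5 CPM. It was the higher with siRNA in each pair, with a log2 difference of 0.59 (SE 0.57, adjusted p = 0.837), a blocked log2 difference of 0.55 (adjusted p = 0.00748), and a blocked log2 difference of 0.68 without replicate 3 (adjusted p = 0.0508).

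SPRY2 was at 19.5, 23.3 and 21.4 CPM and at 14.2, 20.3 and 17.3 CPM, a log2 difference of -0.31 (SE 0.16, edgeR adjusted p = 0.552). With the block it fell (adjusted p = 0.0305), but DESeq2 with the block (0.0768) and edgeR with the block and without replicate 3 (0.240) did not call it. SPRED1 was at 86.5, 112.8 and 97.6 CPM and at 71.3, 93.7 and 72.4 CPM. Again replicates 1 and 3 with siRNA lay below all libraries without it. Here the log2 difference was -0.32 (SE 0.16, adjusted p = 0.546), with a blocked adjusted p of 0.00225, or 0.0760 without replicate 3. In 3 of 3 pairs, 7 of 10 members were lower and 1 was higher, against 20.7% and 19.5% of all genes, and 0 members had groups that did not overlap (14.6% of all genes). DUSP1 was lower in each pair, with a log2 difference of -0.19 (SE 0.16, adjusted p = 0.805, with the block 0.0903).

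**Figure D4:**
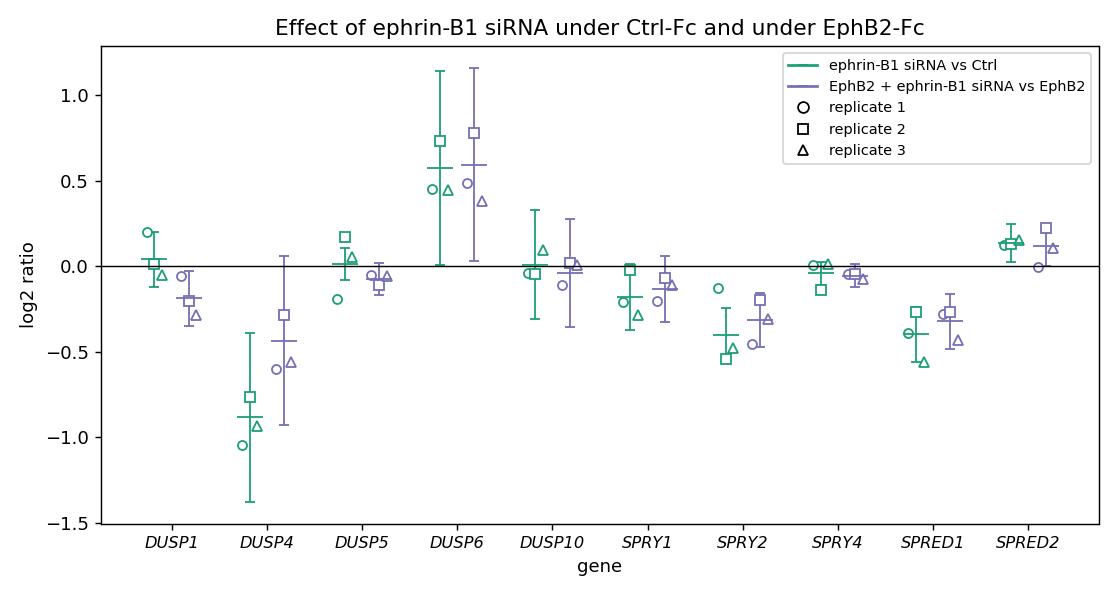
Log2 ratios (vertical axis) for ephrin-B1 siRNA against negative control siRNA, under Ctrl-Fc (green) and under EphB2-Fc (purple), with symbols, ticks and bars as for the ratios of EphB2-Fc. DUSP4, SPRY2 and SPRED1 lie below 0 and DUSP6 above 0 in all pairs of both comparisons, while the SE of DUSP4 and DUSP6 without the block (0.49 to 0.57) is wider than the spread of their pairs.

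Whether ephrin-B1 siRNA altered the response to EphB2-Fc was tested with the interaction of both factors. No member passed in edgeR without the block (0% of all genes were called) or with it (0.00463%), none had an unadjusted p under 0.05 without it (2.31% of all genes), and DESeq2 called none of the 10. The log2 interaction of DUSP1 was -0.23 (SE 0.23, adjusted p = 1.00). With the block it was -0.22 (SE 0.09, edgeR unadjusted p = 0.0230, adjusted p = 0.680). The smaller value of DUSP1 with siRNA was therefore not shown to differ from that without. The interaction of DUSP4 was 0.45 (SE 0.70), the highest of the 10, and with the block its adjusted p was 0.595 (edgeR unadjusted p = 0.00385). With the block 1449 of 21601 genes had an unadjusted p under 0.05.

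For DUSP4 and DUSP6 the difference between experiments was larger than any difference between groups. In all 4 groups replicate 2 exceeded replicate 1 by 2.26- to 3.30-fold in DUSP4 and by 2.57- to 3.91-fold in DUSP6. These are 2 of 10 members at least 2-fold higher in all 4 groups, against 0.704% of all genes. DUSP1 (1.24- to 1.43-fold), SPRED1 (1.30- to 1.42-fold), SPRED2 (1.14- to 1.34-fold) and SPRY2 (up to 1.47-fold) were also higher in replicate 2 in all 4 groups, which makes 6 of 10 members against 23.2% of all genes. DUSP10 and SPRY1 went the other way, with replicate 1 the higher by 1.72- to 2.09-fold and by 1.26- to 1.57-fold in all 4 groups, 2 of 10 members against 22.2% of all genes. SPRY4 was the most even member, between 0.958- and 1.06-fold. DUSP4 and DUSP6 therefore varied together between experiments, while with ephrin-B1 siRNA within experiments they moved in opposite directions.

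**Figure D5:**
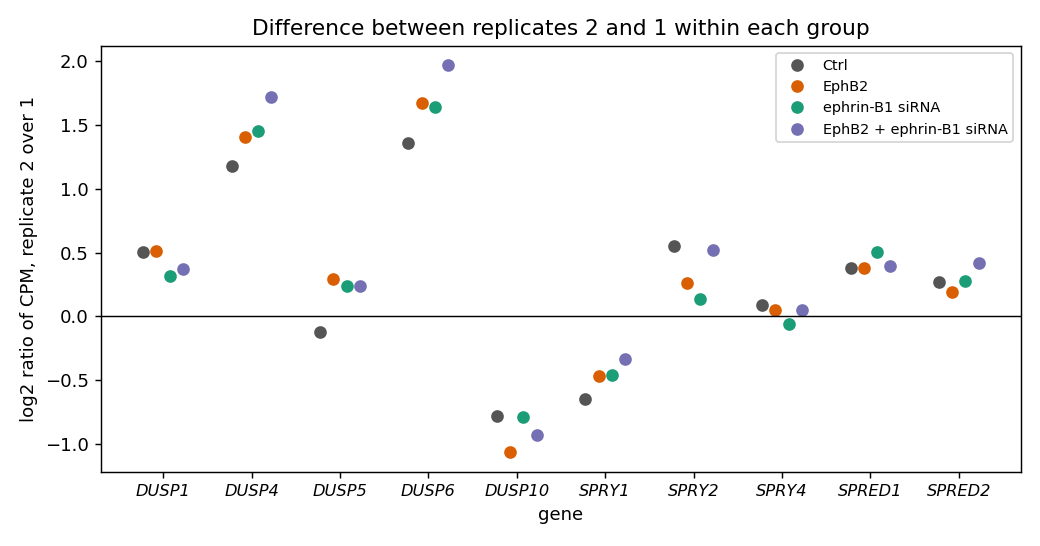
Log2 ratio of CPM of replicate 2 over replicate 1 (vertical axis) for the 10 genes, with 1 point per group. DUSP4 and DUSP6 lie above 1 in all 4 groups, DUSP10 and SPRY1 lie below 0, and SPRY4 lies near 0.

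The genes whose log2 CPM followed each member most closely over the 12 libraries were ranked among 14271 genes with a mean of at least 1 CPM. These are descriptions, because libraries of a replicate number share an experiment. DUSP6 was closest to ETV5, an ETS transcription factor gene that is itself an ERK target (Pearson r = 0.988), and DUSP4 to KCNMA1 (0.982) and HMGA1 (0.978). SPRED1 was closest to NEIL2 (0.988), SPRED2 to CREB3L2 (0.982), SPRY2 to DNAJC10 (0.978) and DUSP10 to TLL1 (0.989). DUSP1 was closest to ENTPD7 (0.964) and then to CCN2 (0.957), a growth factor-inducible matrix gene. The lowest best values were those of SPRY1 with TBC1D2B (0.957), SPRY4 with the complement gene C3 (0.936) and DUSP5 with POLR3A (0.925).

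The transcripts behind the gene sums differed between members. DUSP1 had a single transcript. In DUSP5, SPRY2 and DUSP4 a single transcript held 92.5%, 91.7% and 80.0% of the TPM of the gene on average, whereas in DUSP6, SPRY1 and SPRY4 the leading transcript held 34.3%, 33.1% and 29.1%. For SPRED2 the leading transcript SPRED2-201 held 69.7%, 64.2% and 68.4% of the TPM of the gene in the Ctrl libraries and 79.2%, 80.4% and 79.8% in the ephrin-B1 siRNA libraries. These groups did not overlap, but how often the shares of other transcripts did not overlap was not counted. Under EphB2-Fc the shares were 73.2%, 72.8% and 65.2% without and 72.7%, 69.6% and 76.4% with ephrin-B1 siRNA, and there the groups overlapped. For SPRY4 the transcript SPRY4-201 held 25.9% ± 4.19 in Ctrl, 23.7% ± 5.30 in EphB2, 33.2% ± 3.83 in ephrin-B1 siRNA and 33.5% ± 2.38 in EphB2 + ephrin-B1 siRNA libraries (SD, n = 3). Shares of transcripts rest on reads that kallisto divided between overlapping isoforms, and no test was made on them.

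The kinases and targets of the cascade were read from lists chosen with earlier results of these data known. In the ERK cascade list, 24 of 24 genes were tested, and with ephrin-B1 siRNA 1 rose and 1 fell against Ctrl, where 1.81% of all genes were called. MAP2K1, which encodes the ERK kinase MEK1, was at 106, 101 and 104 CPM in Ctrl and at 77.7, 68.8 and 71.7 CPM with ephrin-B1 siRNA. It fell by 0.51 on the log2 scale (SE 0.07, edgeR adjusted p = 0.00433), and under EphB2-Fc by 0.40 (SE 0.07, adjusted p = 0.0299). BRAF, a RAF kinase gene, rose by 0.39 (SE 0.07, adjusted p = 0.0150) against Ctrl. These calls without the block were lost without replicate 3, where 0 of all genes were called. With EphB2-Fc against Ctrl none of the 24 passed without the block, 2 had an unadjusted p under 0.05 and DESeq2 called 0. With the block 1 rose and 2 fell, against 5.34% of all genes called. Without replicate 3 the counts were 0 and 1, where 68 of 20658 genes were called higher and 72 lower. MAP2K1 rose by 0.22 (edgeR adjusted p = 0.0378, without replicate 3 0.365). MAPK3, the gene of ERK1, fell by 0.20 (adjusted p = 0.0497, without replicate 3 0.108), which DESeq2 with the block did not call (0.0641). The receptor gene PDGFRB, which is also in the mesenchymal list, fell by 0.41 (edgeR adjusted p = 0.000467, without replicate 3 0.0383). In cells with ephrin-B1 siRNA, EphB2-Fc gave 0 edgeR calls of 24 without the block. DESeq2 called 3, and of all genes 114 higher and 171 lower. There 4 had an unadjusted p under 0.05 in edgeR (8.45% of all genes). With the block 1 rose and 4 fell (6.92% of all genes), and 0 passed without replicate 3. MAP2K1 was at 77.7, 68.8 and 71.7 CPM with ephrin-B1 siRNA and at 96.2, 91.0 and 87.1 CPM with EphB2-Fc added.

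In the list of 19 ERK target genes, 1 rose and 1 fell with ephrin-B1 siRNA against Ctrl. ETV4, an ETS factor gene, fell by 0.82 (SE 0.14, edgeR adjusted p = 0.0154), from 50.5, 61.4 and 55.0 CPM to 28.3, 33.9 and 32.2 CPM. MCL1, an anti-apoptotic gene, rose by 0.44 (SE 0.08, adjusted p = 0.0225), and under EphB2-Fc by 0.43 (adjusted p = 0.0484). The calls of ETV4 and MCL1 without the block were lost without replicate 3, where 0 of all genes were called. With the block 3 targets rose and 9 fell against Ctrl, where 6.51% of all genes were called higher and 7.06% lower. Without replicate 3 the counts were 2 and 6, where 307 of 20658 genes were called higher and 521 lower. The median log2 difference without the block was -0.22 against 0.00 over all genes. The targets that rose were MCL1, EGR1 and ETV5, and MYC, PHLDA1, CCND1 and FOSL1 were among those that fell. Of these 7, the calls of ETV5 (0.368), CCND1 (0.0578) and FOSL1 (0.140) were lost without replicate 3. The targets thus moved in both directions against Ctrl, but with more of them lower. Of the 19, 6 log2 differences without the block were positive and 13 negative, against 5 and 5 of the 10 feedback genes. With ephrin-B1 siRNA under EphB2-Fc, 2 rose and 8 fell with the block, against 4.53% and 5.4% of all genes. Without replicate 3 the counts there were 2 and 2, where 166 of 20658 genes were called higher and 166 lower. With EphB2-Fc against Ctrl no target passed in edgeR without the block, 0 had an unadjusted p under 0.05 and DESeq2 called 0. FOSL1 was at 0.32 (SE 0.15, adjusted p = 0.666) and JUNB at 0.24 (SE 0.12, adjusted p = 0.697), both genes of AP-1 subunits, and with the block 4 of 19 rose, namely FOSL1, MYC, PLAUR and SPHK1, against 2.13% of all genes called higher. Without replicate 3 only SPHK1 among these 4 passed with the block (adjusted p = 0.0361), and FOSL1 (0.328), MYC (0.247) and PLAUR (0.119) did not. In cells with ephrin-B1 siRNA, EphB2-Fc gave 0 edgeR calls of 19 without the block and 1 DESeq2 call. There 3 had an unadjusted p under 0.05 in edgeR (8.45% of all genes). With the block 6 rose and 0 fell, against 2.82% and 4.1% of all genes, and without replicate 3 2 rose. In 3 of 3 pairs 12 were higher and 1 lower, against 19.9% and 22% of all genes.

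The other phosphatases and brakes were read in the same fits. Of 7 other MAP kinase phosphatases and relatives, 14 other negative regulators of RAS and ERK, and 12 genes of the p38 and JNK cascade, none passed in edgeR without the block in any comparison. For ephrin-B1 siRNA against Ctrl, 2, 2 and 4 of them had an unadjusted p under 0.05, against 12.1% of all genes. DESeq2 called 1 in each list, and of all 21601 genes it called 470 higher and 538 lower. With the block edgeR called 1 of 7 higher and 0 lower, 2 of 14 higher and 2 lower, and 1 of 12 higher and 2 lower. Of all genes it called 6.51% higher and 7.06% lower. Without replicate 3 the counts were 1 and 0, 0 and 1, and 1 and 1, where 307 of 20658 genes were called higher and 521 lower. DUSP16, a phosphatase of JNK and p38, was at 0.40 with ephrin-B1 siRNA against Ctrl (SE 0.11, edgeR adjusted p = 0.111) and rose with the block (0.00388, without replicate 3 0.0452). DUSP7 was at 0.11 (SE 0.09) and DUSP9 at 0.20 (SE 0.16) with EphB2-Fc against Ctrl, and 0 of the 7 had an unadjusted p under 0.05 there. RASA2, a RAS GTPase-activating protein gene, was at -0.70 (SE 0.18, adjusted p = 0.0787) with ephrin-B1 siRNA against Ctrl and fell with the block (0.000195, without replicate 3 0.00756), and PTPN7 was at 0.86 (SE 0.28, adjusted p = 0.466) with EphB2-Fc against Ctrl. The value of PTPN7 rests on few reads, with 12 to 36 counts in a library. In the p38 and JNK list, with EphB2-Fc against Ctrl, MAPK10 was at 0.54 (SE 0.23, adjusted p = 0.639) and MAP2K6 at -0.61 (SE 0.34, adjusted p = 0.742), of which MAP2K6 fell with the block (0.00159, without replicate 3 0.0366). MAP2K6 was 1 of 12 genes called there with the block, against 5.34% of all genes.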

How the data were processed

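RNA of HMC3 cells was sequenced after rRNA depletion. The authors assigned reads to Ensembl cDNA sequences of GRCh38 with kallisto (version not given in the sources used here) and deposited 1 table per library. The deposited estimated counts carry no normalization. TPM values are those the authors deposited, from kallisto. Of 188753 transcripts, 167067 (88.5%) were paired with 36315 genes of the GENCODE annotation. Totals were 13230689 to 25785591 (median 18694234), and these limit the precision of low genes such as DUSP6.

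Transcript counts were added up for each gene and rounded, and the 21601 genes whose counts over all libraries reached 10 were tested with edgeR 4.0.16 (quasi-likelihood, TMM, all 12 libraries, group means only, Benjamini-Hochberg adjustment over all genes, threshold 0.05). An adjusted p with no other method beside it comes from edgeR. The paper calls the libraries biological replicates. The members and lists were chosen with earlier results of these data known. Genes named were the 10 members, EFNB1, of other lists every gene past the threshold and otherwise up to 2 with the smallest p in EphB2 against Ctrl, the highest and lowest markers of each marker list (the highest of the microglia list and the sum of that list are not reported here), and 2 genes most like each member. DUSP16, RASA2 with ephrin-B1 siRNA, EGR1, ETV5 as a target, PDGFRB, MYC, PHLDA1, CCND1, PLAUR and SPHK1, were named after their values were seen.

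The replicate number was taken as a pairing because same-numbered libraries carry the same experiment number in the submitters' names. Deviations from group means correlated over 14272 genes between same-numbered libraries, with r from 0.59 to 0.69 in replicate 1, from 0.63 to 0.66 in replicate 2 and from 0.02 to 0.18 in replicate 3. Without the block edgeR estimated a biological coefficient of variation of 0.182 on 8 residual degrees of freedom, and with the block 0.0649 on 6. Alternatives were DESeq2 1.42.0, its size factors, other count filters, an offset for transcript length, limma 3.58.1 on log2 of TPM + 1 or + 0.1, the most abundant transcript, only the groups compared, the block, and leaving out libraries. The fit without the block was tested on simulated data for EphB2 against Ctrl (21187 genes), where it called 4 of 20987 unchanged genes, 22.7% of those given a log2 change of 0.5, 76.1% at 1 and 89.6% at 2. The simulated libraries were drawn independently, with no experiment shared between groups. These rates therefore do not cover the pairing present in the data. The fit with the block was not simulated. R 4.3.3, Python 3.11.15, pandas 2.3.3 and matplotlib 3.10.9 were used.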

Additional observations from a re-analysis of the deposited data

Results flagged for a closer look

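DUSP4 was lower with EphB2-Fc in each of 3 pairs without ephrin-B1 siRNA and higher in each of 3 pairs with it. The log2 ratios within replicates 1, 2 and 3 were -0.28, -0.06 and -0.23 without the siRNA and 0.16, 0.42 and 0.15 with it. The test of the difference, the interaction of edgeR, gave 0.45 on the log2 scale (SE 0.70, adjusted p = 1.00), and with the replicate block 0.44 (SE 0.13, adjusted p = 0.595), so the difference did not pass.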

How the results depend on the processing

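The count of members called was 0 in all 5 comparisons without the block, in edgeR, DESeq2 and each other setting without it, and 0 in every fit without the block that left out a library or a replicate number. With the replicate block it was 2 for EphB2 against Ctrl (2 with DESeq2 and the block, 0 with the block and without replicate 3), 4 for ephrin-B1 siRNA against Ctrl (4 with DESeq2 and the block, 3 with the block and without replicate 3) and 4 for EphB2 + ephrin-B1 siRNA against EphB2 (3 with DESeq2 and the block, 0 with the block and without replicate 3). The block changed no other call of a member. It raised the genes called from 8 to 1153, 391 to 2932, 25 to 1495 and 133 to 2146 in EphB2 against Ctrl, ephrin-B1 siRNA against Ctrl, EphB2 + ephrin-B1 siRNA against ephrin-B1 siRNA and against EphB2. In the same order DESeq2 called 83, 470, 114 and 308 genes higher and 122, 538, 171 and 352 lower, the length offset gave 0, 47, 5 and 6 higher and 0, 74, 2 and 15 lower, only the groups compared gave 1, 18, 2 and 0 higher and 0, 70, 0 and 0 lower, and leaving out a library or a replicate number gave from 0 to 15, 407, 27 and 123 genes. Limma on log2 TPM called at most 2 genes in either direction. Without the block, leaving out replicate 3 gave 0 genes in each comparison. For the same comparisons in order, DESeq2 with the block called 413, 1149, 555 and 840 genes higher and 698, 1291, 722 and 979 lower. With the block and without replicate 3, edgeR called 68, 307, 107 and 166 of 20658 genes higher and 72, 521, 62 and 166 lower.

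Of 1106 values of members under 27 settings, 1013 kept their sign, 84 changed it within their SE and 9 changed it beyond that, none past the threshold. With the most abundant transcript SPRY4 was at 0.19 against Ctrl with ephrin-B1 siRNA and at 0.30 with EphB2 + ephrin-B1 siRNA against EphB2. With the length offset SPRED2 was at -0.051 against Ctrl with ephrin-B1 siRNA. On log2 of TPM + 1 and of TPM + 0.1, DUSP1 was at -0.21 and -0.21, DUSP5 at -0.12 and -0.12 and SPRY4 at -0.14 and -0.15 in EphB2 + ephrin-B1 siRNA against ephrin-B1 siRNA, where the median of all genes was -0.20 and -0.27. The cause was not tested. Without the block, leaving out a library or replicate number moved the log2 fold changes with ephrin-B1 siRNA from -1.23 to -0.57 for DUSP4 and from 0.10 to 0.91 for DUSP6 against Ctrl, and from -0.93 to -0.08 for DUSP4 and from 0.03 to 0.98 for DUSP6 under EphB2-Fc.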
